A study of Homo sapiens with 12 samples.

Results

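The cytosolic ribosomal protein genes were followed across 4 groups of T24 cells. They were taken by symbol: an RPL or RPS name followed only by a number, with an optional A, X or L, or one of the names RPLP0, RPLP1, RPLP2 and RPSA, and annotated as protein coding. The rule found 81 of the 60603 genes in the count table, 49 of the large ribosomal subunit (RPL) and 32 of the small subunit (RPS). No measured value entered the symbol rule, but the family was chosen with earlier results of these data known. Of the 81, 79 passed the filter on low counts and were tested, RPL3L was measured but filtered out, and RPL10L had no count.

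T24 cells are a human line established from a bladder carcinoma. The study is on AlissAID, in which a plant auxin receptor and a degron-tagged binding protein bring an untagged endogenous protein to a ubiquitin ligase once an auxin derivative is added. Poly(A) RNA-seq was made from 12 libraries, 3 in each of 4 groups: WT cells with no treatment, WT cells given 5-Ad-IAA, NS1 cells with no treatment, and NS1 cells given 5-Ad-IAA. The comparisons ask what 5-Ad-IAA, the auxin inducer, changed in each line and how the lines differed at rest and under inducer. All groups are T24 cells grown in the same serum-containing medium. The labels spell out neither NS1 nor the degraded protein, its promoter, the dose, the time, nor whether the NS1 line is 1 clone. A difference between the lines therefore cannot be told apart from a difference between clones or passages. Degradation acts on protein, so no transcript checks the labels.

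Each ribosome carries a single copy of nearly every ribosomal protein, and cells make these proteins in matched amounts on the most abundant mRNAs they have. The mRNAs begin with a run of pyrimidines, the 5′ terminal oligopyrimidine (TOP) tract, through which the kinase mTOR and the RNA-binding protein LARP1 control their translation. Ribosomal proteins that find no partner are degraded, and some can bind the ubiquitin ligase MDM2.

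A run of pyrimidines near the listed start was common in these genes. The windows below are those of genes whose level differed between the lines. Among them are RPL4 and RPS27L, with only short runs that reach within 5 bases of the listed start. Each line gives 30 bases around a transcription start of the RefSeq table (GRCh38.p14), 15 before it and 15 from it on, read 5′ to 3′ on the gene's strand. The capitals mark the longest unbroken run of C and T that reaches within 5 bases of the start on either side. Such a run need not include the start itself.
RPL17, chr18:49492451-49492480, minus strand: CCTCTTTCCCTaagcagcctgaggtgagtg
RPS24, chr10:78033848-78033877, plus strand: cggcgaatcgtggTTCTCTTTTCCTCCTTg
RPS12, chr6:132814554-132814583, plus strand: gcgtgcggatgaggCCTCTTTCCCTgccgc
RPLP1, chr15:69452803-69452832, plus strand: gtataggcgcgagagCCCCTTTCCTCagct
RPL14, chr3:40457324-40457353, plus strand: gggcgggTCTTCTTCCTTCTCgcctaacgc
RPS23, chr5:82278340-82278369, minus strand: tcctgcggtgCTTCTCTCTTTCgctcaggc
RPSA, chr3:39406705-39406734, plus strand: tttcctgccgcctgTCTTTTCCgtgctacc
RPL4, chr15:66504841-66504870, minus strand: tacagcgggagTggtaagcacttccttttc
RPS27L, chr15:63157463-63157492, minus strand: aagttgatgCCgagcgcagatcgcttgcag
The run was 16 bases at RPL17, where it starts before the printed window and ends before the start. It was 16 at RPS24, 14 at RPL14, 12 at RPS23, 11 at RPS12 and RPLP1 and 8 at RPSA. At the start listed for RPL4 it was 1 base, and at that of RPS27L 2 bases. A longer run at RPL4 begins just past the 5 bases searched and reaches the end of the printed window. It was not counted, so the short run does not show that RPL4 lacks a pyrimidine tract. The table held windows for 64 of the 81 genes, 79 in all. In these a run of at least 6 bases was present in 72.2%, with a median run of 10, against 22.2% and a median of 4 in the 35116 windows of all genes, and 17.6% in the 85 windows of mitochondrial ribosomal protein genes. Of the 13 windows listed for other mRNAs with a TOP tract, 84.6% had such a run. The run began exactly at base 1 with a C in only 3.8% of the windows of the cytosolic genes, against 1.5% of all. Motifs were searched on both strands over the 250 bases before and 50 after each start. CCGGAAG, the core of ETS factor sites, was in 34.2% of the windows of the cytosolic genes, 38.8% of those of the mitochondrial ribosomal proteins and 10.3% of all. In the same order, AAGATGGC, the YY1 core, was in 7.59%, 27.1% and 2.89%. CACGTG, the E-box, was in 5.06%, 10.6% and 7.26%, and TATAAA in 7.59%, 3.53% and 11.5%. These matches describe letters and were not set against the expression values.

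Library totals ran from 10593934 to 20266996 counts. The labels number the replicates 1 to 3 in each group, and nothing says that they came from separate cultures, so p-values measure the spread between these libraries, which may be technical. The epithelial keratins KRT7, KRT8, KRT18 and KRT19 were abundant in every library (normalised CPM of 179.9 or more). EPCAM, also epithelial, was at 0.64 to 4.74 CPM. The urothelial markers GATA3 (21.9 to 104 CPM) and UPK2 (0.896 to 2.32 CPM) were present, while UPK3A and TP63 had no count. PTPRC, CD3E and HBB never passed 1 count, so leukocyte and red cell RNA was at or near 0. The endothelial markers PECAM1 and VWF reached at most 47 and 13 counts.

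Ribosomal protein genes took 3.91% to 6% of all counts in a library. In untreated WT cells replicates 1, 2 and 3 had shares of 4.85%, 3.91% and 5.24%, a mean of 4.67% ± 0.683 (SD, n = 3). In untreated NS1 cells the shares were 5.53%, 5.62% and 5.83%, a mean of 5.66% ± 0.158 (SD, n = 3). All 3 untreated NS1 libraries thus lay above all 3 untreated WT libraries, and the WT libraries spread more, with replicate 2 the lowest of the 12. With 5-Ad-IAA the shares were 5.37%, 4.74% and 4.51% in WT cells (4.87% ± 0.447, SD, n = 3) and 5.54%, 5.19% and 6% in NS1 cells (5.58% ± 0.404, SD, n = 3), and these groups overlapped. Treated and untreated libraries of a line also overlapped. Counting error alone gives each share a Wilson interval of at most 0.014 percentage points on either side at 95% confidence, so the spread is between libraries. The large and small subunit genes kept a near-fixed proportion, with 1.63 to 1.78 RPL counts for each RPS count over the 12 libraries. Transcripts of the mitochondrial chromosome went the other way in their means, from 2.14% ± 0.776 in untreated and 2.13% ± 0.657 in treated WT cells to 1.04% ± 0.267 and 1.25% ± 0.219 in NS1 cells (SD, n = 3). The untreated lines overlapped, with WT replicate 1 at 1.27% and NS1 replicate 3 at 1.33%. The treated lines did not, but WT replicate 1 (1.54%) was close to NS1 replicate 1 (1.5%). The part of these transcripts in the shares of the ribosomal protein genes was not tested.

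**Figure D1:**
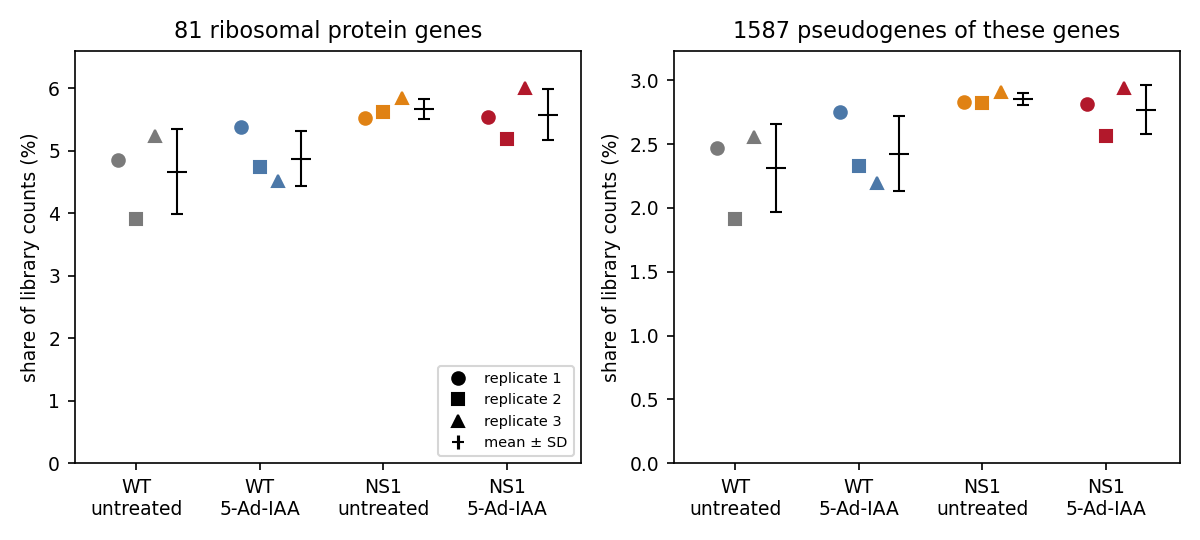
Share of library counts (%) of the 81 ribosomal protein genes (left) and of the 1587 pseudogenes named after them (right), by group, with 1 point for each library and the mean with its SD beside them. The 3 untreated NS1 libraries lie between 5.53% and 5.83%, above the 3 untreated WT libraries, and the pseudogenes follow the same order.

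Levels of different genes were compared as CPM per kilobase of coding sequence in untreated WT cells. On that scale the 79 tested genes ran from 37.1 for RPL39L to 10930 for RPL41, whose coding sequence is only 75 bases. RPL39, a small protein at the peptide exit tunnel, followed at 3217, then RPL10, which joins the large subunit late, at 2729, and the stalk protein RPLP1 at 2331. RPS2, at 2076, was the highest of the small subunit. Untranslated bases also give reads, so dividing by coding length raises genes with a short coding sequence. The transcripts taken for RPL41 and RPL39 have 469 and 401 bases, and the order of the genes depends on the length used. In CPM without length, the genes with the highest mean over all libraries were RPS2, RPL4, RPLP0, RPL10 and RPL8, each at 1193 CPM or more in every library.

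The 4 paralogs whose symbols end in L were the low end of the family. RPL10L, a retrocopy of RPL10 known from testis (ENSG00000165496.4, chromosome 14, 46651010 to 46651821), had 0 counts in all 12 libraries. A count of 0 allows up to 3 counts, or 0.148 to 0.283 CPM depending on the library. RPL3L, the striated muscle paralog of RPL3, had 13 counts in all and at most 3 in a library. RPL39L, also best known from testis, had 5.67 ± 0.955 CPM in untreated WT cells (SD, n = 3) against 492 ± 107 for RPL39, whose coding sequence has the same 153 bases. RPS27L, the paralog of RPS27, had 42.9 ± 3.74 CPM against 268 ± 58.7 for RPS27, both of 252 bases. Per kilobase RPL39L (37.1) and RPS27L (170.3) were the lowest of the 79 genes, with RPL34 next at 436.

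In NS1 cells 5-Ad-IAA moved no ribosomal protein gene past the test: 0 of 79 were called at an adjusted p under 0.05 in edgeR's quasi-likelihood test, where 6.15% of all 17775 genes tested were called. Of the 79, 1 had an unadjusted p under 0.05, beside 20.8% of all genes. DESeq2 called 0 of the 79 as well, where it called 8.29% of all genes. The log2 difference is treated against untreated here and is called a log2 fold change elsewhere. Over the 79 genes its median was 0.04, beside 0.01 for all genes, and it was -0.02 when libraries were scaled by their totals. The large and small subunit genes had medians of 0.04 and 0.05. Every gene's interval at 95% confidence stayed between -0.69 and 0.7 on the log2 scale.

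RPS27L had the highest value. Its replicates 1, 2 and 3 were at 61.2, 47.3 and 49.3 CPM in untreated NS1 cells and at 84.9, 52.6 and 69.6 CPM with inducer. Each treated library was above the untreated library of its number, but replicate 2 with inducer was below replicate 1 without. The log2 fold change was 0.39 (SE 0.16, adjusted p 0.165). The replicate numbers were taken to pair the libraries within a line, which the values only partly bear out. With the number as a block RPS27L was called in edgeR, at 0.38 (adjusted p 0.039). With separate blocks for each number in either line RPS27L had 0.38 (adjusted p 0.00331). It was the only ribosomal protein gene called in either fit, where 13.6% and 25.9% of all genes were called. In WT cells RPS27L had 43.4, 39 and 46.4 CPM untreated and 49.1, 43.6 and 45.9 CPM with inducer, a log2 difference of 0.11 (SE 0.16, adjusted p 1). In the fit without blocks the difference between the inducer effects was 0.29 (SE 0.22, adjusted p 0.699). That fit did not show the effects to differ.

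RPL39L had the lowest value in NS1 cells. It had 4.32, 4.21 and 3.84 CPM untreated and 3.32, 3.23 and 3.23 CPM with inducer, a log2 difference of -0.34 (SE 0.18, adjusted p 0.31), and these are the only inducer groups of the 79 genes in NS1 cells that did not overlap, where 14% of all genes were lower in that way. No gene had treated libraries all above the untreated ones, where 13.2% of all genes did. RPS26, at the mRNA exit channel, followed at -0.2 (SE 0.15, adjusted p 0.527). At the upper end RPS27 had 0.18 (SE 0.15, adjusted p 0.559) and RPL13A, known for translational silencing in inflammation, 0.14 (SE 0.16, adjusted p 0.693).

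In WT cells 0 of 79 genes were called beside 0.0% of all genes, and none of the 79 had an unadjusted p under 0.05, beside 0.529% of all genes. DESeq2 also called 0 of them, and 0.0% of all genes. The median log2 fold change was 0.06, and 78 of the 79 values were above 0, against a median of 0 for all genes. That side of 0 is set by few libraries: without replicate 3 in each group the median was 0.22, and without replicate 2 it was -0.04. RPS3A, of the small subunit, had the highest value. Its replicates 1, 2 and 3 were at 694, 555 and 820 CPM untreated and 990, 799 and 685 CPM treated, higher in 2 of the numbered pairs and lower in the third, for a log2 difference of 0.26 (SE 0.16, adjusted p 1). RPL35 and RPL27, both of the large subunit, followed at 0.19 (SE 0.17) and 0.16 (SE 0.12), and RPS25, RPS28 and RPL21 were nearest to 0 at -0.01, 0 and 0.01.

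The interaction of genotype and inducer called 0 of 79 genes in edgeR, beside 0.0225% of all genes. In DESeq2 it also called 0 of the 79, beside 2.12% of all genes. None of the 79 had an unadjusted p under 0.05 in edgeR, beside 12.4% of all genes. The median of the interaction was -0.03. RPL39L (-0.4, SE 0.24, adjusted p 0.571) and RPS27L (0.29) were the ends of the range, with RPS26 (-0.26, SE 0.21) and RPL35 (-0.2, SE 0.24) next to the former and RPL13A (0.1, SE 0.22) next to the latter. With a block for each number 3.57% of all genes were called, and 14% with separate blocks in either line.

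**Figure D2:**
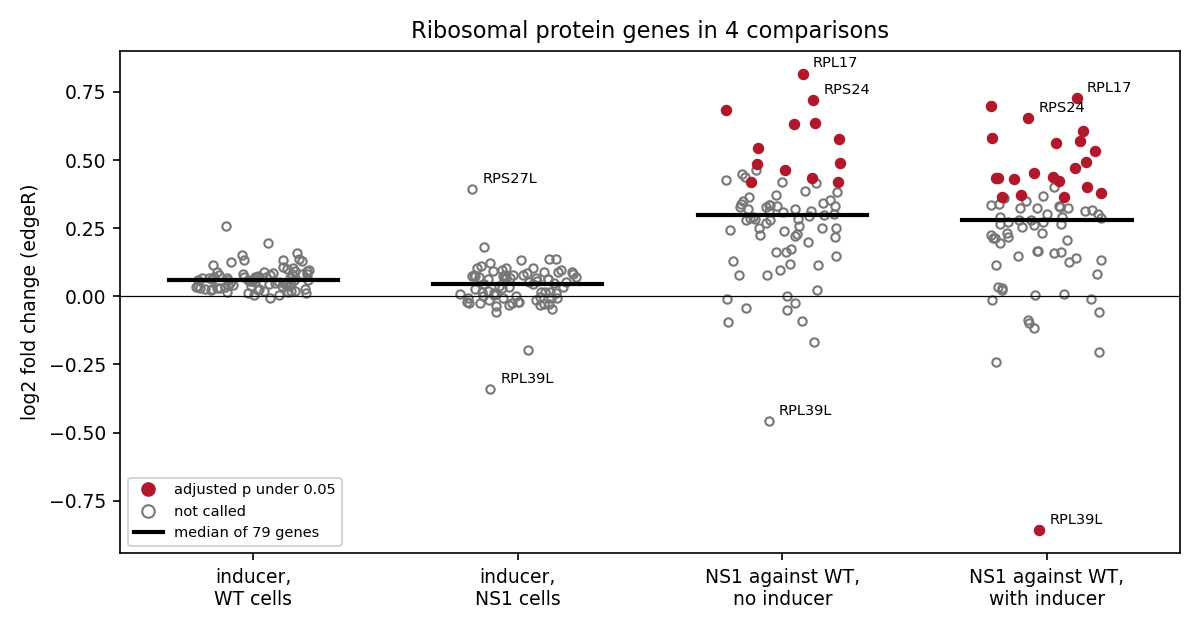
Log2 fold changes of the 79 tested ribosomal protein genes in the inducer comparison of each line and in NS1 against WT cells without and with inducer, with 1 point for each gene and a bar at the median. Filled points passed an adjusted p of 0.05: none for the inducer, 13 and 22 between the lines, where the medians are 0.3 and 0.28.

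More of these genes differed between the lines. Without inducer, 13 of the 79 genes were higher in NS1 than in WT cells and none was lower (edgeR, adjusted p under 0.05), so 16.5% were called beside 12.5% of all genes, and 16.5% higher beside 5.46%. Among them were RPL4, RPL5, RPL7, RPL14, RPL17, RPL22, RPLP1, RPS12, RPS23, RPS24, RPS27A and RPSA, and 7 of the 13 belong to the large and 6 to the small subunit. The other 66 genes did not pass. The median log2 fold change of all 79 was 0.3, a ratio of 1.23, beside 0 for all genes, and 71 values were above 0. In 36 genes all 3 NS1 libraries were above all 3 WT libraries, where 14.8% of all genes were, and in 1 gene, RPL39L, all were below (16.2% of all genes). Over the 79 genes, 42 had an unadjusted p under 0.05, or 53.2%, beside 27.8% of all genes.

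RPL17, which lines the exit tunnel (ENSG00000265681.7, chromosome 18, 49488453 to 49492523), differed most. Its replicates 1, 2 and 3 had 407, 340.3 and 473 CPM in untreated WT cells and 725, 688 and 736 CPM in untreated NS1 cells. The groups were far apart, with a log2 difference of 0.82 (SE 0.13, adjusted p 0.00162).

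RPS24, mutated in some patients with Diamond-Blackfan anaemia (ENSG00000138326.20, chromosome 10), had 494, 310.3 and 383 CPM in WT cells and 618, 634 and 705 CPM in NS1 cells. WT replicate 1 was the nearest to the NS1 libraries, and the log2 fold change was 0.72 (SE 0.18, adjusted p 0.0189). RPS12, a small subunit protein (ENSG00000112306.8, chromosome 6), had 325, 278 and 379 CPM against 560, 487 and 531 CPM, a log2 difference of 0.68 (SE 0.13, adjusted p 0.0061). Both genes were higher in each NS1 library than in any WT library.

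RPL4, which also reaches into the exit tunnel (ENSG00000174444.15, chromosome 15), had 1537, 1309 and 1683 CPM in WT cells and 2049, 2390 and 2577 CPM in NS1 cells (log2 fold change 0.63, SE 0.13, adjusted p 0.00784). RPLP1, which with RPLP2 forms the stalk that recruits elongation factors (ENSG00000137818.12, chromosome 15), had 702, 692 and 998 CPM against 1086, 1189 and 1209 CPM (0.54, SE 0.14, adjusted p 0.0235). In both genes the groups did not overlap, and WT replicate 3 came closest to the NS1 libraries.

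RPSA, a small subunit protein also described as a laminin receptor (ENSG00000168028.14, chromosome 3), had 880, 633 and 890 CPM in WT cells and 1311, 1095 and 1179 CPM in NS1 cells, a log2 difference of 0.58 (SE 0.17, adjusted p 0.0373). RPS23, at the decoding centre, was higher by 0.49 (SE 0.13, adjusted p 0.0251), RPL7 by 0.49 (SE 0.12, adjusted p 0.0179) and RPS27A, made as a fusion with ubiquitin, by 0.46 (SE 0.12, adjusted p 0.0266). RPL14, RPL22 and RPL5, which can bind MDM2, had log2 fold changes of 0.43, 0.42 and 0.42 (adjusted p 0.0375, 0.0229 and 0.0385).

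At the lower end the values did not pass. RPL39L had 6.18, 4.57 and 6.27 CPM in untreated WT cells and 4.32, 4.21 and 3.84 CPM in untreated NS1 cells, a log2 difference of -0.46 (SE 0.17, adjusted p 0.1). RPL23A, at the tunnel exit (chromosome 17), had 554, 468 and 667 CPM against 510, 473 and 521 CPM (-0.17, SE 0.12, adjusted p 0.413), and its groups overlapped. RPL27, also on chromosome 17, had -0.1 (SE 0.12, adjusted p 0.669). The partners of RPLP1 in the stalk did not pass: RPLP0 had 0.41 (SE 0.15, adjusted p 0.0893) and RPLP2 -0.01 (SE 0.13, adjusted p 0.974). Of the most abundant genes RPS2 had 0.29 (SE 0.17, adjusted p 0.28), RPL8 0.34 (SE 0.12, adjusted p 0.0925) and RPL10 -0.09 (SE 0.12, adjusted p 0.678).

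The count of 13 rests on single libraries. It was 8, 5 and 32 without WT untreated replicate 1, 2 or 3, where 9.82%, 9.8% and 8.79% of all genes were called, and 6 and 4 without NS1 untreated replicate 2 or 3 (6.63% and 6.95%). Without WT untreated replicate 2, 1 of the 5, RPL39L, was lower, and all others in these fits were higher. It was 22, 0 and 2 when replicate number 1, 2 or 3 was left out of every group, where 19.6%, 1.13% and 1.0% of all genes were called, and 21 with DESeq2 (13.8% of all genes). Without replicate number 2, 13 genes had an unadjusted p under 0.05, or 16.5%, beside 18% of all genes. RPL17, RPS12 and RPL4 were called in all 6 fits that left out 1 library of these groups, with log2 fold changes of at least 0.7, 0.58 and 0.54. The median of the 79 genes was 0.34, 0.19 and 0.4 without replicate number 1, 2 or 3.

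**Figure D3:**
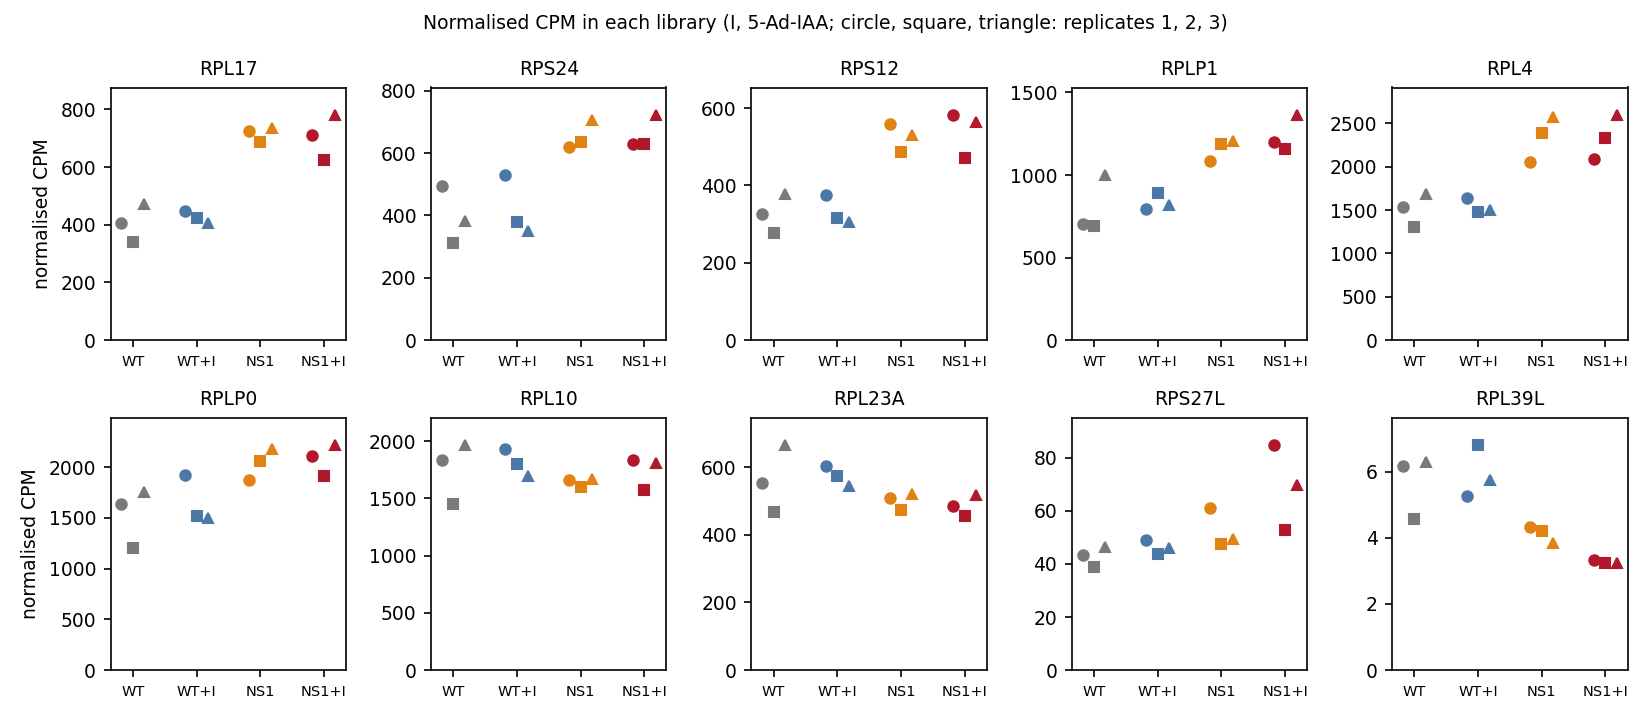
Normalised CPM of 10 ribosomal protein genes in each library, by group, with a linear axis from 0 for each gene and the replicate numbers as symbols. RPL17, RPS12 and RPL4 are higher in each NS1 library than in any WT library, RPL10 and RPL23A overlap between the untreated lines, and RPL39L is lowest in treated NS1 cells.

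With 5-Ad-IAA in both lines, 22 of the 79 genes were called, 21 of them higher in NS1 cells and 1 lower. That is 27.8%, beside 28.2% of all genes, and 26.6% higher beside 13.6%. All 13 genes called without inducer were called again, which is 100% of that list and 59.1% of this one. Among the 9 others were RPL13A, RPL28, RPL34, RPL37, RPS27L and RPS28, which were higher, and RPL39L, which was lower. The median log2 fold change was 0.28 and 70 values were above 0. In 41 genes each NS1 library was above each WT library (21.2% of all genes were), and in 2, RPL39L and RPL23A, each was below (22.2% of all genes).

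RPL17 again had the highest value, with 447, 424 and 407 CPM in treated WT cells and 711, 624 and 782 CPM in treated NS1 cells (0.73, SE 0.13, adjusted p 0.00102). RPS12 had 374, 317 and 306 CPM against 583, 472 and 563 CPM (0.7, SE 0.13, adjusted p 0.00194) and RPS24 529, 379 and 350 CPM against 627, 630.3 and 723 CPM (0.65, SE 0.18, adjusted p 0.0145). On chromosome 15 the called genes included RPL4 at 0.61 (adjusted p 0.00397), RPS27L at 0.58 (adjusted p 0.0145) and RPLP1 at 0.57 (adjusted p 0.00884). RPS27L, which did not pass without inducer (0.3, SE 0.16, adjusted p 0.248), had 49.1, 43.6 and 45.9 CPM in WT cells and 84.9, 52.6 and 69.6 CPM in NS1 cells.

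RPL39L was the only ribosomal protein gene called lower in NS1 cells, where 9 of the 79 values were below 0. It had 5.26, 6.82 and 5.76 CPM in treated WT cells and 3.32, 3.23 and 3.23 CPM in treated NS1 cells, a log2 difference of -0.86 (SE 0.17, adjusted p 0.00281), a ratio of 0.552. RPL39 itself had 0.01 (SE 0.17, adjusted p 0.986), with an interval from -0.32 to 0.33 at 95% confidence. RPL13A (0.56, SE 0.16, adjusted p 0.017) and RPL28 (0.49, SE 0.14, adjusted p 0.0169) were the other large subunit genes among the highest. RPSA was called at 0.47 (SE 0.17, adjusted p 0.0481), but its groups overlapped, since NS1 replicate 2 (986 CPM) was below WT replicate 1 (991 CPM). RPL23A (-0.24, SE 0.12, adjusted p 0.166) and RPL27 (-0.2, SE 0.12, adjusted p 0.245) were the next lowest.

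The count of 22 was 8, 7 of them higher, without WT 5-Ad-IAA replicate 2, WT 5-Ad-IAA replicate 3 or NS1 5-Ad-IAA replicate 3, where 20.6%, 20.7% and 22.3% of all genes were called. The 8 are 10.1% of the 79, and this difference from all genes was not tested. It was 30, 3 and 3 without replicate number 1, 2 or 3 in every group, where 34.0%, 9.03% and 11.7% of all genes were called, and 25 with DESeq2 (28.2%). RPL17, RPS12, RPL4, RPLP1 and RPL39L were called in each of the 6 fits without 1 library of these groups.

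The line comparisons without and with inducer share no library, so their values can be set side by side. Across the 79 genes the log2 fold changes had a Pearson r of 0.933 and a Spearman rho of 0.898, beside 0.769 and 0.672 across all genes tested. Of the 79 genes, 76 had the same sign in both and 69 were above 0 in both. Genes are not independent replicates, and the libraries share lines and, by number, possibly handling, so these are descriptions. Coding length had a rho of 0.312 with the log2 fold change without inducer and 0.184 with it, and mean CPM 0.181 and 0.103, over the same 79 genes.

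How far a ribosomal protein gene differed between the lines went with where it lies. Each gene's log2 fold change was set beside the median of the other tested genes of its chromosome, leaving out ribosomal protein genes, their pseudogenes and genes whose exons overlap them. The rho over the 79 genes was 0.654 without and 0.606 with inducer. Against the 20 nearest such genes, 10 on each side, it was 0.532 and 0.442. For the inducer comparisons the rho with the chromosome median was 0.183 in NS1 and -0.176 in WT cells. These genes share chromosomes, so the points are not independent.

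Examples come from the ends of this order. RPL17 lies on chromosome 18, where the other genes had a median log2 fold change of 0.31 without inducer and the 20 neighbours one of 0.73, all 20 above 0. RPS24 lies on chromosome 10, where the other genes had a median of 0.25 and its 20 neighbours 0.54, with 19 above 0. The value of RPL17 without inducer, 0.82, was thus close to that of its neighbours. On chromosome 17 the other genes had a median of -0.28, and the 6 ribosomal protein genes there had one of -0.03 and none was called. On chromosome 11 the 5 genes had a median of 0.08 beside -0.2. RPL3, alone on chromosome 22, went against this order: its values of 0.33 without and 0.4 with inducer stood beside medians of -0.2 and -0.21 for the other genes there. Within this order the ribosomal protein genes stood above their surroundings: 76 of 79 were above the median of their chromosome in each line comparison, by a median of 0.28 without and 0.27 with inducer. Such a count is not particular to the lines. For the inducer in WT cells, where no gene was called, 77 of 79 were above it, by a median of 0.065. For the inducer in NS1 cells 54 were, by a median of 0.03. RPS12 is one for which the neighbours differ less (median 0.15 beside its own 0.68), and RPL39L lies the other way (neighbours 0.32 beside -0.46). The part of such chromosome-wide differences in the values of the ribosomal protein genes was not tested.

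**Figure D4:**
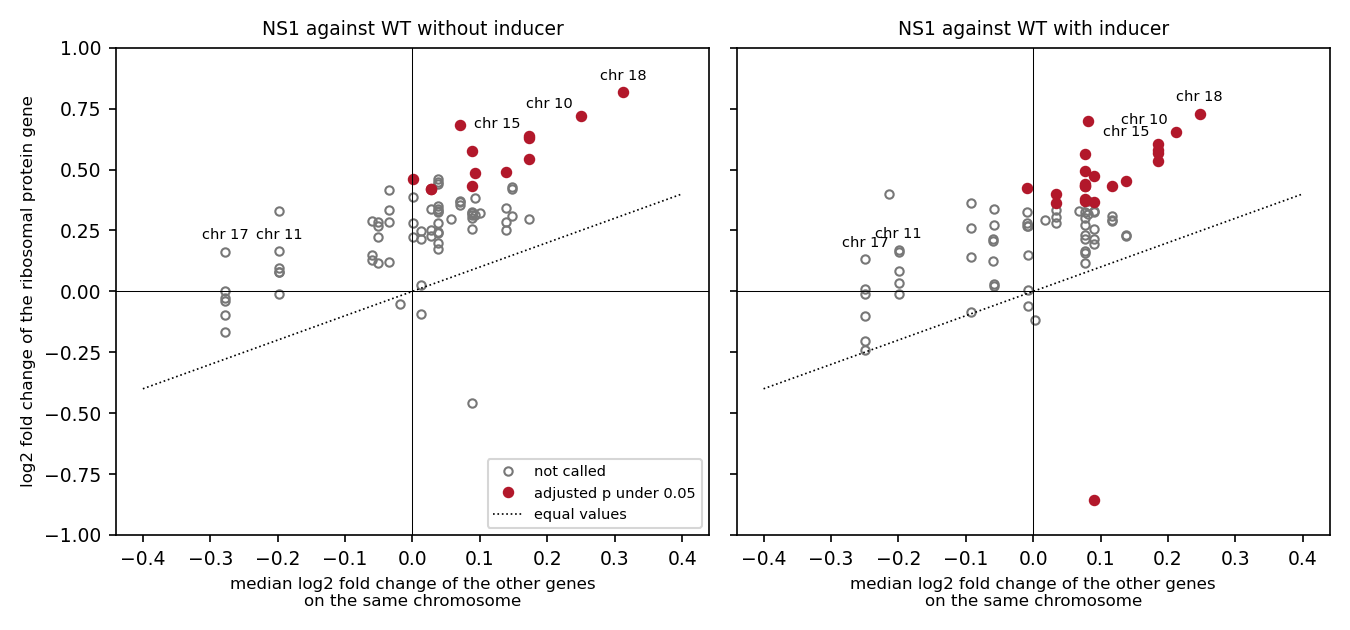
Log2 fold change of each of the 79 ribosomal protein genes (vertical) against the median of the other tested genes on its chromosome (horizontal), for NS1 against WT cells without (left) and with inducer (right); filled points passed an adjusted p of 0.05 and the dotted line marks equal values. The points rise from chromosomes 17 and 11 to chromosomes 10 and 18, with RPL3 on chromosome 22 above this order, and 76 of 79 lie above the line in each panel.

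Ribosomal protein genes have many processed pseudogenes, copies of the mRNA set back into the genome, and short reads can match both. The table held 1587 genes named as pseudogenes of 77 of the 81 genes, and 828 had counts. They took 1.92% to 2.94% of library counts, which is 33.4% of the summed counts of genes and pseudogenes, and 32.7% to 33.9% in single libraries. For 12 genes the pseudogenes held more counts than the gene, led by RPL21 (82.9%), RPS26 (78%), RPS27 (65.2%), RPS3A (64.7%) and RPL7 (64.5%), and RPL17 was among them (54.2%). Of the other genes with the largest differences, RPS24 had 27.7% and RPL4 24.8% there, RPS12 0.999% and RPLP1 0.0256%, and RPS27L and RPL39L have no such pseudogene. The share of a gene's 75-base windows that a pseudogene also holds had a rho of 0.928 with the share of counts under pseudogene names over 80 genes. How reads that match several places were counted is not given in the sources used here, so a gene's reads and its pseudogenes' reads cannot be told apart.

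With pseudogene counts added to their gene, 13 genes were called without inducer (12.3% of all genes), and RPL17 had 0.82 (adjusted p 0.00208). Of the 27 genes none of whose windows lie in a pseudogene, 2 were called without and 5 with inducer, beside the 12.5% and 28.2% of all genes, with medians of 0.28 and 0.27. Most calls lay in the 50 genes with at least 1% of summed counts under pseudogene names. Of these 11 and 17 were called, with medians of 0.33 and 0.3. Of the 29 genes with under 1%, 2 and 5 were called, with medians of 0.25 and 0.27. The part of pseudogene reads in these calls was not tested. Of 266 pseudogenes that passed the filter, 42 were called higher and 2 lower without inducer (5.46% and 7.07% of all genes), 47 and 3 with it (13.6% and 14.5%), and 0 for the inducer in either line. Several genes also overlap another annotated gene whose counts nearly repeat theirs: RPL17 had 97009 counts over the libraries and RPL17-C18orf32 95942, and RPS10 had 74556 and RPS10-NUDT3 78540. The kit does not mark strand, so RPS23 (96840 counts) and the opposite-strand gene ATG10 (59472) likewise cannot be told apart.

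Genes with which the ribosomal proteins share translation or control were read from lists. Of 6 ribosomal proteins whose names fall outside the symbol rule (among them FAU, RPL22L1, RPL26L1, RPL36AL and RPL7L1) none was called in any comparison, with medians of 0.07 and -0.05 between the lines without and with inducer. Of 18 other mRNAs with a TOP tract, 2 were called higher in NS1 cells without inducer and 5 with it, beside 5.46% and 13.6% of all genes, none was called lower, and none was called for the inducer, with line medians of 0.24 and 0.23. EEF1A1, the elongation factor that brings aminoacyl-tRNA, had log2 fold changes of 0.49 (SE 0.11, adjusted p 0.0115) and 0.71 (SE 0.11, adjusted p 0.000477). PABPC1, the poly(A)-binding protein, had 0.71 (SE 0.18, adjusted p 0.0204) and 0.81 (SE 0.18, adjusted p 0.00427). EEF2, EIF3H and RACK1 were called with inducer (0.52, 0.35 and 0.34) and not without, but the interaction called 0 of the 18.

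The 10 snoRNA host genes with a TOP start, which carry small nucleolar RNAs in their introns, had line medians of 0.7 and 0.58. Of these 5 were called higher in NS1 cells in each comparison, beside 5.46% and 13.6% of all genes, and 4 of them in both. None was called lower, beside 7.07% and 14.5% of all genes. GAS5 had 22.6 ± 2.55 CPM in untreated WT cells and 46.7 ± 10.7 CPM in untreated NS1 cells (SD, n = 3). Its log2 fold changes were 1.05 (SE 0.21, adjusted p 0.00684), and 1.23 (SE 0.21, adjusted p 0.00098) with inducer. SNHG29 had 0.85 and 0.86 (adjusted p 0.00143 and 0.000411), SNHG32 0.89 and 0.97, and SNHG5 0.81 and 0.9. EPB41L4A-AS1 had 0.3 (adjusted p 0.25) and 0.75 (adjusted p 0.00386), and SNHG1 0.65 (adjusted p 0.0205) and -0.17 (adjusted p 0.461). SNHG1 was the one member of this list called for the inducer in NS1 cells, where 6.15% of all genes were called. It fell by 0.63 on the log2 scale (SE 0.16, adjusted p 0.0361).

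The 78 mitochondrial ribosomal protein genes, whose products build the ribosome that translates the mitochondrial chromosome, had line medians below 0. In NS1 cells 3 were called lower and none higher without inducer, where 7.07% of all genes were lower, and 21 lower and none higher with it, where 14.5% were, the medians being -0.05 and -0.23. MRPS33 had -0.64 (SE 0.14, adjusted p 0.0122) and -0.76 (SE 0.14, adjusted p 0.00191), and MRPL17 -0.4 (adjusted p 0.119) and -0.83 (SE 0.16, adjusted p 0.00214). With inducer in NS1 cells MRPL15 fell by 0.41 (SE 0.1, adjusted p 0.0317). It was the only call of the list, whose median was -0.14, where 6.15% of all genes were called. The interaction called 0 of the 78, 5 of which had an unadjusted p under 0.05, beside 12.4% of all genes.

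Among 11 regulators of TOP translation and ribosomal protein transcription, 3 were called without and 4 with inducer between the lines, beside 12.5% and 28.2% of all genes, and none for the inducer. EIF4EBP1, the mTOR target that holds back cap-dependent initiation, had -0.63 (SE 0.17, adjusted p 0.0287) and -1.16 (SE 0.17, adjusted p 0.000344), while its paralog EIF4EBP2 had 0.68 (SE 0.16, adjusted p 0.014) and 0.76 (SE 0.16, adjusted p 0.00302). MYC, which drives ribosome biogenesis, was higher without inducer (0.4, SE 0.11, adjusted p 0.03) and had 0.22 (SE 0.11, adjusted p 0.146) with it. RPTOR, the mTOR partner, was lower (-0.39, SE 0.1, adjusted p 0.0121) and AKT1S1 higher (0.31, SE 0.09, adjusted p 0.0244) in the comparison with inducer. LARP1 and MTOR were not called in any comparison.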

How the data were processed

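Poly(A) RNA-seq libraries from 12 T24 samples were used, 3 in each of 4 groups taken from the sample titles. The authors deposited whole-number counts per gene, not normalized, for 60603 versioned Ensembl genes. Per the submitters' processing notes reads were aligned with STAR 2.7.3a to hg38 and counted with featureCounts 1.6.4. The annotation release, the strand setting and the treatment of reads that match several places are not given in the sources used here. Per the labels' protocols the NEBNext Ultra II RNA kit and a NextSeq kit of 75 cycles were used. All 12 columns were used.

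Counts were fitted in edgeR 4.0.16 (R 4.3.3): filterByExpr over the 4 groups (17775 genes), TMM scaling, 1 mean per group over all 12 libraries, glmQLFit and glmQLFTest, two-sided, with Benjamini-Hochberg adjustment over all genes tested and calls under 0.05. The SE is the log2 fold change divided by the root of F. Normalised CPM use the TMM-scaled totals, and shares use raw counts. The edgeR steps were tested on simulated data. Alternatives were DESeq2 1.42.0, other scalings and filters, replicate blocks and leaving out libraries. Adding pseudogene counts to the gene, and TMM without these genes, were chosen after seeing the data.

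Gene symbols matched 60306 identifiers. Positions are from GENCODE 29 (GRCh38), with start and end only for the 26 of 81 genes whose identifier has the same version there, and otherwise the chromosome alone. Start windows are from RefSeq (GRCh38.p14), and unlisted genes were not used. Results for some genes are not reported here.

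The members and the gene lists were chosen with earlier results of these data known. Genes named with values are, in each comparison, those called (up to the 10 highest and 10 lowest) and the 3 highest and lowest, the 5 most abundant, the paralogs ending in L beside their main copies, the stalk proteins, and list members by the same rule. Other called genes were named outside this rule, as were EEF2, EIF3H, RACK1, LARP1, MTOR and the genes named as examples of overlapping annotation, pseudogenes or neighbours, after their values were seen.

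Within a line, libraries with the same number deviated from their group means together, with correlations of 0.768, 0.473 and 0.483 in NS1 and 0.802, 0.432 and 0.263 in WT cells. Replicate 1 correlated negatively with replicates 2 and 3. Between replicates 2 and 3 the correlations across numbers were positive too, at 0.315 and 0.429 in NS1 and 0.276 and 0.438 in WT cells. Treated WT replicate 3 thus went more with untreated replicate 2 (0.438) than with untreated replicate 3 (0.263). The numbers were taken to pair untreated and treated libraries, but for replicates 2 and 3 this is an assumption.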

Additional observations from a re-analysis of the deposited data

How the results depend on the processing

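Counting error was far below the spread between libraries. With the replicate block 1 member was called for the inducer in NS1 cells (RPS27L), and 1 with separate blocks in either line. For the lines the numbers were not taken to pair the libraries, since same-number correlations were low (0.138, 0.094 and 0.235 without and 0.147, 0.136 and -0.0099 with inducer). Those between different numbers ran from -0.156 to -0.019 without and from -0.178 to 0.136 with inducer, so some pairing without inducer is possible. In the line comparisons the block gave 32 calls without and 33 with inducer (22% and 37.5% of all genes), and blocks in either line could not be fitted. Without inducer there were 6 calls with the 2 groups alone (9.3% of all genes) and 21 with DESeq2. Leaving out libraries gave 0 to 32 calls between the lines without and 3 to 30 with inducer, a member median for the inducer in WT cells of -0.057 to 0.22 and for the interaction of -0.23 to 0.13. Adding pseudogenes gave shares of 6.98%, 7.3%, 8.51% and 8.35% (WT, treated WT, NS1, treated NS1), and leaving the 10 highest other genes out of the total gave 6.08% and 6.12% in NS1 cells. The member median for the inducer in NS1 cells was -0.02 with library totals. Signs also changed in genes that did not pass the test. RPS25 in WT cells had 0.0038 with the block, 0.0063 with separate blocks and -0.13 to 0.16 without a library. RPS28 there had -0.0067 with pseudogenes added and -0.12 to 0.16 without a library, and RPL21 -0.103 to 0.17. RPL27 had -0.202 to 0.043 between the untreated lines. In the interaction RPL35 had -0.47 to 0.022, RPS25 -0.11 to 0.26 and RPL13A -0.078 to 0.27. The causes were not tested.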
